A study of Mus musculus with 8 samples.

Results

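RNA-seq levels were compared between C3H10T1/2 cells with a stable knockdown of MLL1 (shMLL1) and control cells (shControl) in the undifferentiated state, day 0. C3H10T1/2 is a line of mesenchymal stem cells (MSCs) from the mouse, which a hormone mixture can turn into adipocytes. The genes described are those with an RPKM over 1, a read number scaled to exon length and to all mapped reads of the library, in at least 1 of the 2 libraries. This rule kept 10381 of 41325 listed gene symbols, against 11513 when all 8 libraries of the study were used. Calls, counts and medians rest on the log2 ratio of (RPKM + 0.1) in shMLL1 to shControl cells, while a log2 ratio printed with an interval is that of the RPKM without an added constant. The last gene kept was *Gm8113* at an RPKM of 1.00, and the first one left out was *Ogfrl1* at 0.99997. The cells were grown in DMEM with fetal bovine serum to confluence and collected before insulin, dexamethasone and isobutylmethylxanthine were added, although the treatment given for every library is adipogenic differentiation. The knockdown cells were transfected with a pLKO.1 vector carrying the shRNA, selected in puromycin and isolated as clones, and how the shControl cells were made is not given in the sources used here. The control is labelled WT and the other line is labelled as an MLL1 knockdown. The lines shKDM4D and shNFIB, made in the same way against a histone demethylase and a nuclear factor, were used beside them at day 0. The day 5 libraries of all 4 lines, collected after adipogenic induction, were used for the time course. Each line had 1 library per day, so no difference has a replicate check and no p-value is given. An effect of the knockdown and a trait of the isolated clone cannot be told apart.

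MLL1, encoded by *Kmt2a*, is a histone H3 lysine 4 methyltransferase of the Trithorax group. It works in a complex with WDR5, RBBP5, ASH2L and DPY30, is guided to chromatin with menin and PSIP1, and is best known for keeping Hox genes active in development and in leukemia. Related enzymes, among them MLL3, MLL4 and the SET1 proteins, methylate the same lysine, to differing degrees, at other enhancers and promoters. The comparison asks how the transcriptome of the MSC line differs with less MLL1 before any differentiation signal is given.

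The shControl library held 26638000 mapped reads and the shMLL1 library 38202600, as read from the step between the lowest RPKM values. An RPKM was a whole number of reads, within 0.02, for 96.2% to 96.5% of genes with reads in the 8 libraries, those with the most reads left out. The reads on ribosomal RNA-like genes took 10.5% and 10.6% of the 2 libraries. The exact 95% intervals below follow from these read numbers, belong to the ratio of the RPKM values without an added constant, and cover counting error only. Of 14 mesenchymal markers, 13 had an RPKM over 1 in both libraries, and the exception *Nt5e* was at 0.0218 and 0.00304. The summed RPKM of the 14 was 1770 in shControl and 1183 in shMLL1 cells. None of 6 adipocyte markers was over 1, and *Cidec* and *Plin1* were at 0 in both libraries. Of 8 markers each, macrophage genes over 1 numbered 2 in shControl and 1 in shMLL1 cells, neural genes 2 in both, and endothelial, epithelial and skeletal muscle genes 1 in shControl and 0 in shMLL1 cells. *Adgre1*, *Cldn5*, *Epcam*, *Myod1* and *Sox2* were among the defining markers at 0 in both. In bulk RNA, fewer cells of a type and less RNA per cell cannot be told apart.

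The targeted gene *Kmt2a* (chr9:44803355-44881296 of GRCm38, a protein coding gene on the minus strand) was measured at 5.17 in shControl, 2.0 in shMLL1, 4.68 in shKDM4D and 6.33 in shNFIB cells in RPKM. The shMLL1 library was the lowest of the 4 lines, with a log2 ratio to shControl of -1.37 (exact 95% interval -1.47 to -1.27). At day 5 it was 5.27 in the control and 1.63 in the knockdown. The *Kmt2a* values of the shMLL1 libraries were not whole numbers of reads, at 1274.9 reads on day 0 and 1033.7 on day 5, while they were whole in the other 6 libraries. Among 9893 genes with 20 to 20000 reads that were whole within 0.05 in the other lines, *Kmt2a* was the only one for which this was so in either shMLL1 library. The cause was not tested, and the interval given here counts the day 0 value as 1275 reads.

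The rest of the MLL and SET1 machinery was near its control level. All 19 genes of these H3K4 methyltransferase complexes were over the expression limit, of which 2 were lower by more than 2-fold and 0 higher. The background for such calls was 4.56% lower and 0.973% higher among all 10381 genes. Beside *Kmt2a*, the other lower gene was *Pagr1a*, a subunit of the MLL3 and MLL4 complexes, at 4.44 in shControl, 1.87 in shMLL1, 0.251 in shKDM4D and 0.262 in shNFIB cells. For *Pagr1a* the shMLL1 level thus lay between the control and the other lines, and its reads cannot be separated with certainty from those of overlapping transcripts. The SET1 methyltransferase gene *Setd1a* was at 7.82 in shControl and 11.7 in shMLL1 cells, a log2 ratio of 0.58 (0.49 to 0.67), and *Psip1*, the chromatin tether of MLL1, was at 77.5 in shControl and 99.8 in shMLL1 cells. The shared core subunit *Dpy30* was at 45.4 in shControl and 51.6 in shMLL1 cells.

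Few Hox genes, the classical MLL1 targets, were expressed in these cells. Of 47 Hox and TALE homeobox genes found, 12 were over the limit, namely 5 of the HoxA cluster and 7 TALE cofactors, and no gene of the HoxB, HoxC or HoxD clusters. None of the 12 differed by more than 2-fold, where 4.56% of all genes were lower and 0.973% higher, so few calls were to be had in so short a list. Below their control level were 10 of the 12, with a median log2 ratio of -0.23 beside -0.05 for all genes. Against the same shControl library this median was -0.08 in shKDM4D and -0.21 in shNFIB cells. For the 5 HoxA genes it was -0.26 in shMLL1, -0.21 in shKDM4D and -0.37 in shNFIB cells, so the lean was not particular to shMLL1 cells. *Hoxa2* was at 8.04 in shControl, 5.66 in shMLL1, 6.8 in shKDM4D and 4.38 in shNFIB cells, where shNFIB cells were lower still. *Hoxa7*, the most abundant Hox gene, was at 19.7 in shControl and 17.3 in shMLL1 cells (log2 ratio -0.19 (-0.29 to -0.09)). *Meis2*, a TALE cofactor of Hox proteins, was at 11.9 in shControl and 7.13 in shMLL1 cells and *Meis3* at 2.96 in shControl and 1.74 in shMLL1 cells. Of the 30 Polycomb genes, whose products oppose the Trithorax group, 1 was lower, the accessory factor *Phf1* at 3.88 in shControl, 1.68 in shMLL1, 3.71 in shKDM4D and 3.68 in shNFIB cells, and the catalytic subunit *Ezh1* was at 5.93 in shControl and 3.36 in shMLL1 cells.

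Over all genes, the shMLL1 library showed many more lower than higher genes. By more than 2-fold, 473 genes (4.56%) were lower and 101 (0.973%) were higher, so that 82.4% of the called genes were lower, while 9807 genes lay within 2-fold. The center of the distribution lay near 0, with a median log2 ratio of -0.05 (0.04 after quantile or median-of-ratios scaling) and 5811 genes (56.0%) below 0. The 5th percentile was -0.95 and the 95th percentile was 0.53. For 333 of the lower and 57 of the higher genes, the counting interval lay wholly beyond 2-fold. The median RPKM was 4.26 in shControl and 1.56 in shMLL1 cells for the lower genes, and 1.18 and 3.41 for the higher genes. Of the lower genes, 7 were at 0 in shMLL1 cells, and 3 of the higher genes were at 0 in shControl cells. Lower genes outnumbered higher ones at every level of expression. They made up 9.67% of genes whose larger RPKM was between 1 and 2, 5.30% between 2 and 5, 3.26% between 5 and 10, 3.21% between 10 and 50 and 3.85% above 50. The higher genes made up 2.32%, 1.16%, 0.870%, 0.405% and 1.02% of the same classes. The share of lower genes among the called depended on the scale and on the line used as reference. It was 70.0% (348 lower, 149 higher) after quantile normalization of the 8 libraries, 71.2% (454 and 184) against shKDM4D and 66.4% (468 and 237) against shNFIB cells in place of shControl cells.

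**Figure D1:**
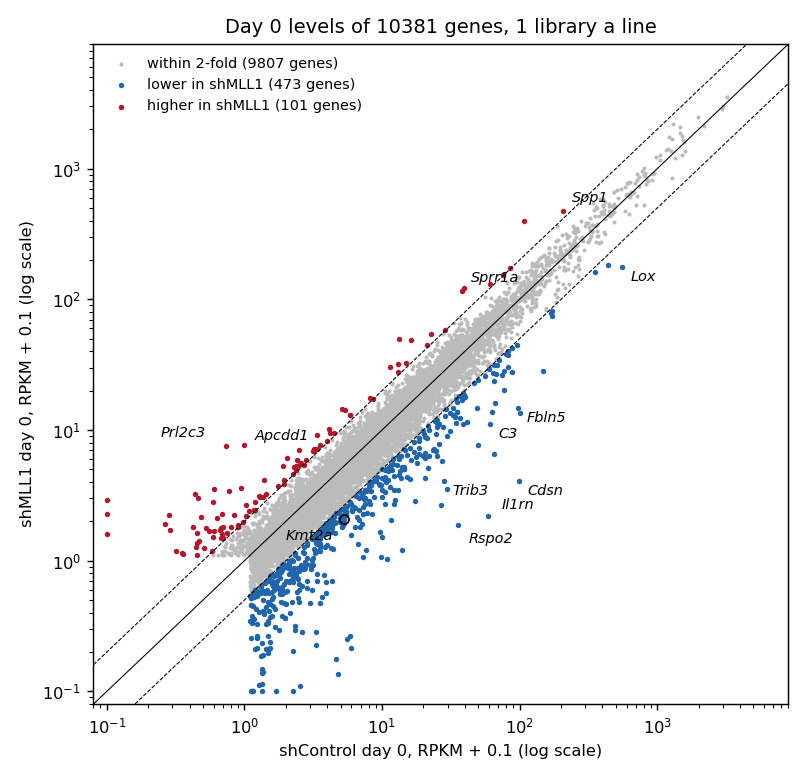
RPKM + 0.1 of the 10381 genes in the shControl library (horizontal axis, log scale) and the shMLL1 library (vertical axis, log scale) at day 0, 1 library a line, with lines at equality and at 2-fold. The 473 lower genes reach further from the diagonal than the 101 higher genes, and they lie at all levels, from *Kmt2a* at an RPKM of 5.17 to *Lox* at 556 in shControl cells.

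The genes furthest below their control level included an interleukin-1 antagonist, an R-spondin, a complement protease and a matrix proteoglycan. The 15 lowest and the 15 highest log2 ratios were taken from 6425 genes annotated as protein coding with an RPKM of at least 5 in either library. Symbols starting with Gm, ending in Rik or missing from the annotation were left out of this ranking. One of these was *Il1rn* (chr2:24336853-24351494), which encodes the interleukin-1 receptor antagonist, at 58.5 in shControl, 2.09 in shMLL1, 42.8 in shKDM4D and 5.59 in shNFIB cells. Its log2 ratio was -4.81 (-4.95 to -4.67). *Cdsn*, which encodes the adhesion protein corneodesmosin, was at 98.3 in shControl, 4.0 in shMLL1, 35.6 in shKDM4D and 2.26 in shNFIB cells, so that shNFIB cells were as low as shMLL1 cells. The same was seen for *Car6*, a secreted carbonic anhydrase, at 5.89 in shControl, 0.115 in shMLL1, 1.72 in shKDM4D and 0.059 in shNFIB cells. *Rspo2*, a ligand that strengthens Wnt signalling, was at 35.4 in shControl, 1.78 in shMLL1, 19.2 in shKDM4D and 9.21 in shNFIB cells, lowest in shMLL1 cells by a wide margin. *Cd74*, the invariant chain of MHC class II, was at 5.75 in shControl, 0.167 in shMLL1, 1.52 in shKDM4D and 1.6 in shNFIB cells. *Clec3b*, which encodes tetranectin, was near 10 in the other 3 lines and at 0.924 in shMLL1 cells. *Scara5*, a ferritin receptor, was also low in shMLL1 cells alone, at 29.7 in shControl, 3.43 in shMLL1, 46.7 in shKDM4D and 27.5 in shNFIB cells, and *Naalad2*, a peptidase gene, at 7.12 in shControl, 0.965 in shMLL1, 5.09 in shKDM4D and 4.64 in shNFIB cells. Among the remaining genes of this group, *Igsf10* was at 13.9 in shControl, 1.11 in shMLL1, 3.55 in shKDM4D and 1.66 in shNFIB cells. The homeobox gene *Irx1* was at 9.8 in shControl, 0.969 in shMLL1, 3.52 in shKDM4D and 3.46 in shNFIB cells. *Cox6a2*, a muscle-type subunit of cytochrome c oxidase, was covered by 99 reads in shControl and 4 in shMLL1 cells. In 11 of these 15 genes the shMLL1 level was below those of all other lines at day 0. *C1s1*, *Aspn*, *Trib3* and *Cth*, which complete the 15, belong to groups described further on. *Nov* was not ranked because its symbol was not in the annotation. It was at 101 in shControl, 13.4 in shMLL1, 59.6 in shKDM4D and 38.3 in shNFIB cells. Its log2 ratio of -2.90 was below those of *Trib3*, *Naalad2* and *Cth*.

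Among the genes with the highest ratios, the proliferin genes stood near the top. *Prl2c2* was at 108 in shControl, 397 in shMLL1, 387 in shKDM4D and 192 in shNFIB cells, and *Prl2c3* at 0.635 in shControl, 7.41 in shMLL1, 9.33 in shKDM4D and 3.31 in shNFIB cells, so that shKDM4D cells were as high as shMLL1 cells and shControl cells were the lowest. The proliferins are prolactin-related hormones of proliferating fibroblasts, and as near-identical copies their reads may be split between them. *Apcdd1*, a membrane inhibitor of Wnt signalling, was at 0.899 in shControl, 7.54 in shMLL1, 0.549 in shKDM4D and 1.21 in shNFIB cells, and its log2 ratio was 3.07 (2.90 to 3.24). *Spp1* encodes osteopontin, a secreted matrix phosphoprotein, and was the most abundant of the 15 at 206 in shControl, 473 in shMLL1, 104 in shKDM4D and 90.1 in shNFIB cells. Its log2 ratio was 1.20 (1.17 to 1.23), and shMLL1 cells exceeded every other line. *Sprr1a*, a cornified envelope protein, was at 38.2 in shControl, 116 in shMLL1, 8.25 in shKDM4D and 41.3 in shNFIB cells. *Eno3*, the muscle enolase, was at 16.1 in shControl, 48.9 in shMLL1, 15.8 in shKDM4D and 6.44 in shNFIB cells. *Hmga2*, an architectural chromatin protein of growing embryonic cells, was at 22.5 in shControl, 54.1 in shMLL1, 25 in shKDM4D and 64.2 in shNFIB cells, and thus also high in shNFIB cells. *Gja1*, which encodes the gap junction protein connexin 43, was at 11.4 in shControl, 30.05 in shMLL1, 9.35 in shKDM4D and 19.3 in shNFIB cells, and *Cav1*, the main coat protein of caveolae, at 12.9 in shControl, 31.9 in shMLL1, 20.7 in shKDM4D and 11.8 in shNFIB cells. The ETS factor *Etv4* was at 3.25 in shControl, 9.07 in shMLL1, 3.84 in shKDM4D and 3.11 in shNFIB cells, with all 3 other lines close together. *Ctnnal1*, an alpha-catenin relative, was at 5.04 in shControl, 14.3 in shMLL1, 4.63 in shKDM4D and 1.36 in shNFIB cells, and *Map1b*, a microtubule-binding protein, at 2.31 in shControl, 5.82 in shMLL1, 2.66 in shKDM4D and 2.51 in shNFIB cells. *Gpr149*, an orphan receptor, was at 1.93 in shControl and 5.99 in shMLL1 cells. *Esm1*, which encodes the proteoglycan endocan, was at 1.81 in shControl and 5.23 in shMLL1 cells, and the chemokine *Ccl7* at 39.6 in shControl and 122 in shMLL1 cells. In 13 of the 15 the shMLL1 library was the highest of the 4.

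**Figure D2:**
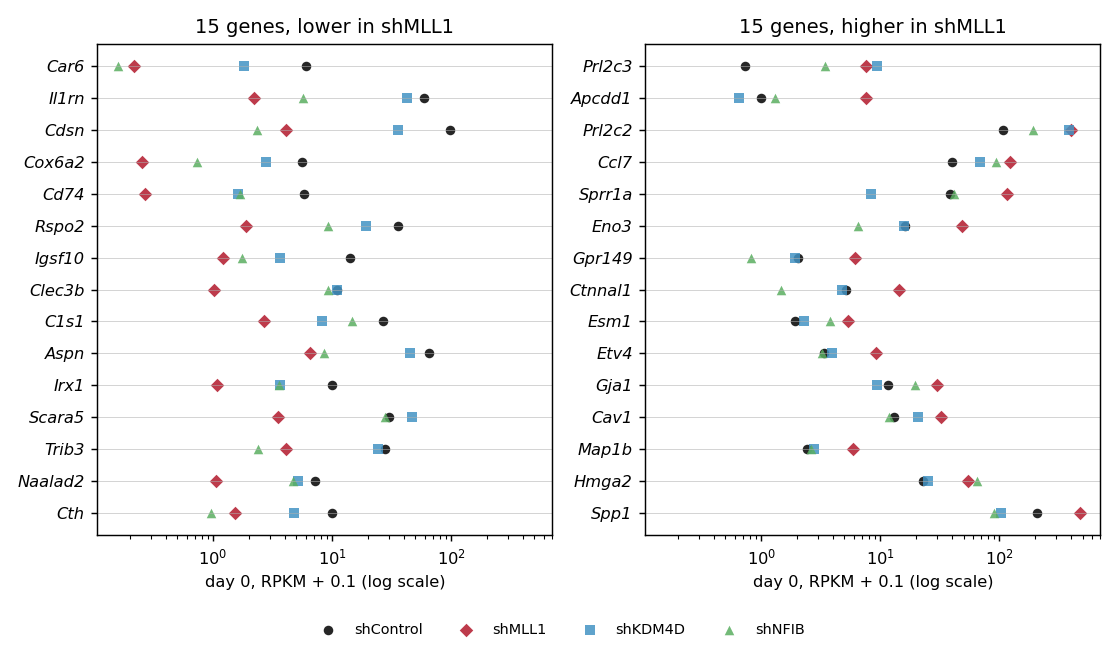
Day 0 RPKM + 0.1 (horizontal axis, log scale) in each of the 4 lines, 1 library a line. Shown are the 15 genes with the lowest (left) and the 15 with the highest (right) log2 ratio of shMLL1 to shControl cells. They come from annotated protein coding genes with an RPKM of at least 5. The shMLL1 library lies below the other 3 in 11 genes on the left and above them in 13 on the right, with *Car6*, *Cdsn*, *Trib3* and *Cth* as low or lower in shNFIB cells.

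Genes were then grouped by function in 42 lists, and in each list those over the expression limit were counted. The largest shares of lower genes were found in markers of other cell types (5 of 7, all at low levels), acute-phase and complement proteins (6 of 9), small leucine-rich proteoglycans (3 of 6), interferon-stimulated genes (19 of 49) and the ATF4-CHOP stress response (16 of 47), read against a background of 4.56%. The proliferation lists stood on the other side, with all members of the mitosis list above their control level and none of them past 2-fold.

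**Figure D3:**
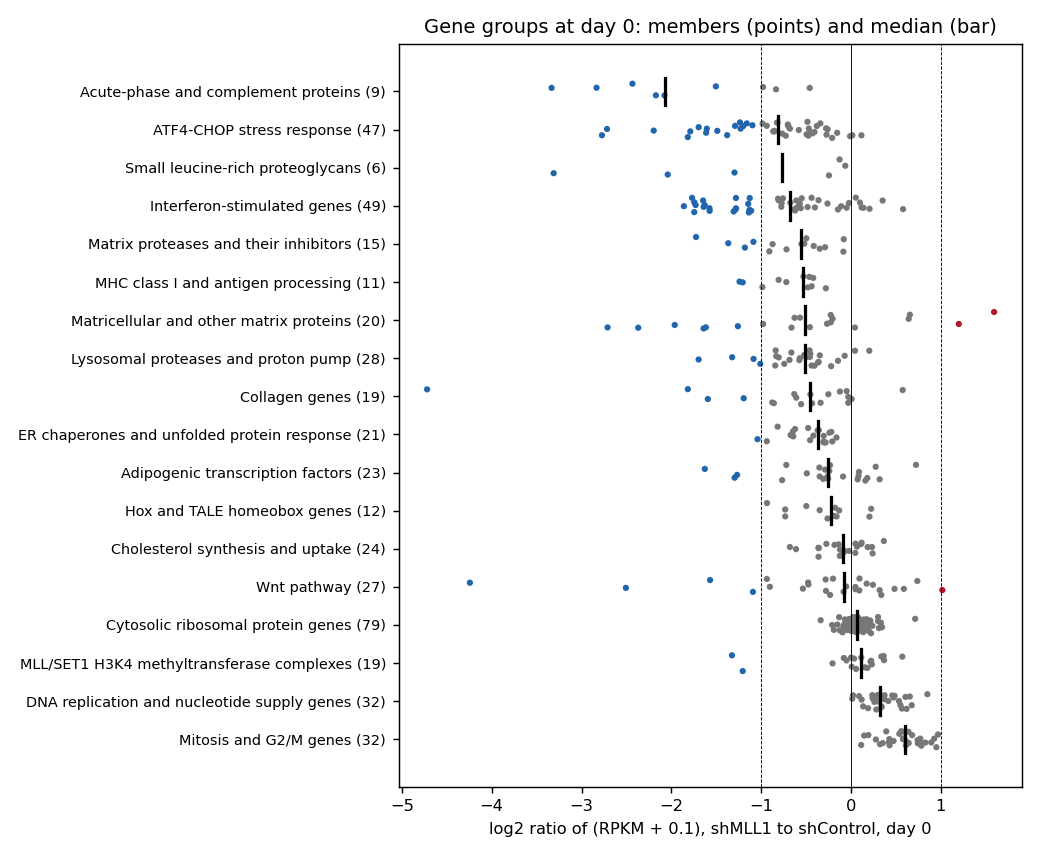
Log2 ratio of (RPKM + 0.1) in shMLL1 to shControl cells at day 0 for the members of 18 gene lists, with the number of expressed members in brackets. Each point is a gene (blue lower and red higher by more than 2-fold, gray neither), bars are medians, and the dashed lines mark 2-fold. Medians run from -2.08 for acute-phase and complement proteins to 0.60 for mitosis genes.

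Secreted proteins of the acute phase and of the complement system were low in shMLL1 cells. All 9 expressed members were below their control level, 6 by more than 2-fold, with a median log2 ratio of -2.08. The 6 lower genes were in each case below all 3 other lines. *C3*, the central component of complement, was at 60.5 in shControl, 11.1 in shMLL1, 66 in shKDM4D and 45 in shNFIB cells, a log2 ratio of -2.44 (-2.51 to -2.38). *C1s1* and *C1ra*, the proteases that start the classical pathway, were at 26.9 in shControl, 2.58 in shMLL1, 8.18 in shKDM4D and 14.5 in shNFIB cells for the first and 21.4 in shControl, 5.01 in shMLL1, 11.5 in shKDM4D and 13.5 in shNFIB cells for the second. Both have close paralogs, so their reads may be shared. *Hp*, which encodes haptoglobin, was low in every line at day 0. It was at 1.43 in shControl, 0.114 in shMLL1, 0.351 in shKDM4D and 0.867 in shNFIB cells. On day 5 it reached 304 in shControl, 5.96 in shMLL1, 29.2 in shKDM4D and 9.43 in shNFIB cells. *Lcn2*, an iron-scavenging lipocalin, was at 2.68 in shControl, 0.878 in shMLL1, 4.47 in shKDM4D and 1.82 in shNFIB cells. *Serpina3g*, a member of a serpin family with many copies, was at 12.2 in shControl, 2.64 in shMLL1, 8.49 in shKDM4D and 17.4 in shNFIB cells. The summed RPKM of the 9 genes was 157 in shControl, 40.9 in shMLL1, 120 in shKDM4D and 117 in shNFIB cells.

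Interferon-stimulated genes were low as a group. Of 49 expressed members, 19 (38.8%) were lower by more than 2-fold and 0 higher, 42 were below their control level, and the median log2 ratio was -0.68. By role, 7 of 8 interferon-inducible GTPases, 9 of 21 antiviral effectors and 3 of 14 receptors, signal transducers and IRF factors were lower, while 0 of 6 nucleic acid sensors were. The GTPases act on the membranes that enclose pathogens. *Irgm2* was at 1.53 in shControl, 0.348 in shMLL1, 0.541 in shKDM4D and 0.682 in shNFIB cells and *Igtp* at 2.4 in shControl, 0.738 in shMLL1, 0.937 in shKDM4D and 1.56 in shNFIB cells. *Tgtp1* was at 1.77 in shControl, 0.457 in shMLL1, 0.846 in shKDM4D and 2.94 in shNFIB cells, where shNFIB cells were above the control, and it has near-identical copies. *Gbp2*, a guanylate-binding protein, was at 7.43 in shControl, 2.94 in shMLL1, 4.11 in shKDM4D and 5.11 in shNFIB cells. Among the effectors, *Ifit3*, whose product binds viral RNA, was at 26 in shControl, 7.68 in shMLL1, 10.5 in shKDM4D and 14.6 in shNFIB cells, a log2 ratio of -1.76 (-1.91 to -1.61), and shares sequence with *Ifit3b*. *Ifit1*, of the same family, was at 11.3 in shControl, 3.59 in shMLL1, 2.89 in shKDM4D and 3.61 in shNFIB cells, so that all 3 knockdown lines were below shControl cells. *Trim30a* was at 6.76 in shControl, 1.97 in shMLL1, 2.61 in shKDM4D and 4.18 in shNFIB cells, *Xaf1* at 2.35 in shControl, 0.62 in shMLL1, 0.633 in shKDM4D and 1.27 in shNFIB cells, and *Oas1a*, one of a cluster of near-identical oligoadenylate synthetase genes, at 2.65 in shControl, 0.778 in shMLL1, 0 in shKDM4D and 0.0853 in shNFIB cells. The regulator *Irf7*, which drives the response, was at 1.16 in shControl, 0.471 in shMLL1, 0.474 in shKDM4D and 0.298 in shNFIB cells. The most abundant members were close between the 2 libraries, with *Ifitm3* at 269 in shControl and 209 in shMLL1 cells and *Ifitm2* at 182 in shControl and 195 in shMLL1 cells. The shControl library was itself high for many of these genes. Against the same shControl library, the median log2 ratio was -0.48 in shKDM4D and -0.42 in shNFIB cells, and with those lines as the reference only 5 and 6 interferon genes were lower in shMLL1 cells. In MHC class I and antigen processing, 2 of 11 genes were lower, the proteasome activator *Psme2* at 25 in shControl, 10.5 in shMLL1, 17.1 in shKDM4D and 18.3 in shNFIB cells and the peptide-loading factor *Tapbp* at 30.9 in shControl, 13.3 in shMLL1, 21.1 in shKDM4D and 16.4 in shNFIB cells. All 11 were below their control level, including *B2m*, the light chain of class I molecules, at 699.9 in shControl and 523 in shMLL1 cells. The median log2 ratio of these 11 to shControl was -0.53 in shMLL1, -0.53 in shKDM4D and -0.19 in shNFIB cells. As a list they were thus as low in shKDM4D cells.

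The start-site regions of these genes were read from RefSeq (GRCm38.p6), from 250 bases before to 50 bases after the start, and 8117 of the 10381 genes had a promoter in that table. The interferon-stimulated response element, to which IRF factors bind, was searched on both strands as TTTC, any pair of bases, and TTTC. It was found in 21 of 40 promoters of the interferon list, in 11 of 16 that were lower and in 10 of 24 that were not. The share was 9.85% (33 of 335) among all lower genes, and 11 of these 33 were the list members just counted. It was 5.00% (3 of 60) among higher genes, 3.65% among all expressed genes and 3.99% among 27025 promoters. The matches are a description of the letters and not of binding. Stretches of 60 bases upstream of 4 lower genes are shown because they carry the element, in capitals on either strand. They lie at chr19:34640760-34640819 (plus strand) for *Ifit1*, chr3:142620579-142620638 (plus strand) for *Gbp2*, chr11:58199496-58199555 (plus strand) for *Igtp* and chr5:120907526-120907585 (minus strand) for *Oas1a*. *Ifit1* holds a pair of elements, *Oas1a* a pair that overlap, and the others hold 1 each.
Ifit1: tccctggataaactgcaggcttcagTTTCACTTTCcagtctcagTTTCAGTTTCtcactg
Gbp2: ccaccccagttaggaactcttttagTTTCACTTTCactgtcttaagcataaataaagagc
Igtp: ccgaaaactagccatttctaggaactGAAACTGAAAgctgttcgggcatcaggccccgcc
Oas1a: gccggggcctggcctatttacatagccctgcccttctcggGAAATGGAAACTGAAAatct

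Genes of the ATF4-CHOP response, which supplies amino acids under nutrient or endoplasmic reticulum stress, were low in shMLL1 cells. Of 47 expressed members, 16 (34.0%) were lower and 0 higher, 45 were below their control level, and the median log2 ratio was -0.82. The gene of CHOP itself, *Ddit3*, stands outside these counts because it is listed as *Ddit3_1*, at 88.5 in shControl, 27.7 in shMLL1, 62.1 in shKDM4D and 26.9 in shNFIB cells, and as *Ddit3_2*, at 0 in both libraries. With it 17 of 48 were lower. The factor *Atf4* itself was within 2-fold, at 187 in shControl, 104 in shMLL1, 212 in shKDM4D and 70.9 in shNFIB cells, while *Atf5*, which acts with it, was lower at 171 in shControl, 74.4 in shMLL1, 178 in shKDM4D and 74.1 in shNFIB cells. *Trib3*, a pseudokinase induced by ATF4 and CHOP, was at 27.9 in shControl, 4.0 in shMLL1, 24.2 in shKDM4D and 2.29 in shNFIB cells. *Chac1*, which degrades glutathione, was at 21.7 in shControl, 6.2 in shMLL1, 21.3 in shKDM4D and 3.44 in shNFIB cells, and the stress factor *Atf3* at 2.75 in shControl, 0.523 in shMLL1, 0.784 in shKDM4D and 0.224 in shNFIB cells. In each of these the shNFIB library was at or below the shMLL1 library, while shKDM4D cells were near the control in all but *Atf3*. Enzymes of serine, proline, sulfur amino acid and folate pathways were lower in 6 of 13 cases. *Aldh1l2*, a mitochondrial folate enzyme, was at 39 in shControl, 11 in shMLL1, 29 in shKDM4D and 6.93 in shNFIB cells, and *Cth*, which makes cysteine, at 9.93 in shControl, 1.43 in shMLL1, 4.71 in shKDM4D and 0.864 in shNFIB cells. *Psph*, the last step of serine synthesis, was at 15.1 in shControl, 6.37 in shMLL1, 15.5 in shKDM4D and 5.89 in shNFIB cells, and the proline enzymes *Aldh18a1* and *Pycr1* were at 32.7 in shControl and 14.6 in shMLL1 cells and at 7.91 in shControl and 2.75 in shMLL1 cells. Of 8 amino acid transporters 5 were lower, among them *Slc7a11*, the cystine importer, at 2.56 in shControl, 0.775 in shMLL1, 2.67 in shKDM4D and 0.589 in shNFIB cells, and *Slc7a5* with its partner *Slc3a2*, at 64.1 in shControl and 27.2 in shMLL1 cells and at 55.6 in shControl and 25.9 in shMLL1 cells. None of 13 aminoacyl-tRNA synthetases was called, and *Nars*, the most abundant, was at 189 in shControl and 136 in shMLL1 cells. *Gpt2*, an alanine aminotransferase, was at 9.92 in shControl, 2.99 in shMLL1, 9.07 in shKDM4D and 3.37 in shNFIB cells. The median log2 ratio of the list to shControl was -0.07 in shKDM4D and -1.15 in shNFIB cells. With shKDM4D cells as the reference 15 members were lower in shMLL1 cells, and with shNFIB cells as the reference 0 were. The related chaperones of the endoplasmic reticulum had 1 lower gene of 21, *Herpud1* at 24.2 in shControl, 11.7 in shMLL1, 22.3 in shKDM4D and 12.9 in shNFIB cells, with all 21 below their control level and a median of -0.37. The main chaperone *Hspa5* was at 188 in shControl and 118 in shMLL1 cells.

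The composite element of ATF4 and C/EBP factors was searched in the same promoters as TGATGCAA on both strands. It was present in 12 of 37 promoters of the list, in 6 of 13 that were lower and 6 of 24 that were not. Its share was 2.69% (9 of 335) among all lower genes, and 6 of these 9 were the list members just counted. It was present in 0 of 60 higher genes, 0.616% of expressed genes and 1.03% of all promoters. The stretches below belong to 4 lower genes with the element, in capitals on either strand, at chr1:191183409-191183468 (minus strand) for *Atf3*, chr2:119351024-119351083 (plus strand) for *Chac1*, chr11:120643817-120643876 (minus strand) for *Pycr1* and chr3:50443645-50443704 (minus strand) for *Slc7a11*. A pair of elements in opposite directions stands in *Slc7a11*.
Atf3: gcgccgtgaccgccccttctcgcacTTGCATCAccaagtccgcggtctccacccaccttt
Chac1: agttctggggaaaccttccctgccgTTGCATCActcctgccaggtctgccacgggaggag
Pycr1: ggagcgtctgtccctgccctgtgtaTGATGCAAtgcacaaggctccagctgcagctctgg
Slc7a11: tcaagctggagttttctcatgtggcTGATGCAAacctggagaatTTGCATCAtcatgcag

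Matrix genes were lower in several families, with the abundant fibrillar collagens within 2-fold. The counts stand beside 4.56% lower and 0.973% higher among all genes. Of 19 expressed collagen genes 4 were lower. *Col8a2*, a network collagen, was at 4.53 in shControl, 0.0758 in shMLL1, 2.82 in shKDM4D and 0.0477 in shNFIB cells, low in shNFIB cells as well. The cartilage collagens *Col2a1* and *Col11a1* were at 24.5 in shControl, 6.87 in shMLL1, 27.5 in shKDM4D and 23.4 in shNFIB cells for the first and 8.07 in shControl, 2.6 in shMLL1, 8.84 in shKDM4D and 6.99 in shNFIB cells for the second, lowest in shMLL1 cells in both cases. *Col15a1* was at 1.13 in shControl and 0.437 in shMLL1 cells, and *Col1a1*, the main chain of collagen I, was at 809 in shControl, 530.0 in shMLL1, 953 in shKDM4D and 659.8 in shNFIB cells. Of 6 small leucine-rich proteoglycans, which coat collagen fibrils, 3 neighbors on chromosome 13 were lower. These were *Aspn* at 64.9 in shControl, 6.45 in shMLL1, 44.7 in shKDM4D and 8.47 in shNFIB cells, *Ogn* at 66.5 in shControl, 16.1 in shMLL1, 27.5 in shKDM4D and 37.3 in shNFIB cells and *Omd* at 10.2 in shControl, 4.1 in shMLL1, 12.3 in shKDM4D and 9.12 in shNFIB cells. The most abundant proteoglycan, *Bgn*, was at 466 in shControl and 446 in shMLL1 cells. Among 20 matricellular and other matrix genes, 6 were lower and 2 higher. *Lox*, which crosslinks collagen and elastin, was at 556 in shControl, 178 in shMLL1, 384 in shKDM4D and 564 in shNFIB cells, a log2 ratio of -1.64 (-1.66 to -1.62). The elastic fiber genes *Fbln5* and *Fbn2* were at 96.9 in shControl, 14.7 in shMLL1, 54.7 in shKDM4D and 59.5 in shNFIB cells and at 1.57 in shControl, 0.327 in shMLL1, 0.86 in shKDM4D and 0.849 in shNFIB cells. *Mgp*, an inhibitor of calcification, was at 147 in shControl, 28.4 in shMLL1, 85 in shKDM4D and 79.9 in shNFIB cells. *Postn* and *Fn1*, which encode periostin and fibronectin, were as low in shNFIB cells, at 34.5 in shControl, 11.2 in shMLL1, 15.6 in shKDM4D and 10.3 in shNFIB cells and at 438 in shControl, 183 in shMLL1, 504 in shKDM4D and 172 in shNFIB cells. The higher genes were *Spp1* and the hyaluronan synthase *Has2*, at 1.28 in shControl, 4.08 in shMLL1, 3.77 in shKDM4D and 7.68 in shNFIB cells, which was lowest in shControl cells. Among 15 matrix proteases and inhibitors, 4 were lower and all 15 were below their control level, with *Adamts5* at 29.5 in shControl, 8.85 in shMLL1, 29.9 in shKDM4D and 35.4 in shNFIB cells and *Adamts1* at 35.3 in shControl, 13.6 in shMLL1, 20.8 in shKDM4D and 25.5 in shNFIB cells. The other lower proteases were *Adamts2* at 5.26 in shControl, 2.26 in shMLL1, 4.76 in shKDM4D and 3.41 in shNFIB cells and *Mmp19* at 5.46 in shControl, 2.52 in shMLL1, 7.0 in shKDM4D and 5.49 in shNFIB cells, and the inhibitor *Timp3* was at 155 in shControl and 82.4 in shMLL1 cells. Of 14 integrins and laminins 3 were lower, *Itga11* at 2.17 in shControl, 0.592 in shMLL1, 2.58 in shKDM4D and 3.84 in shNFIB cells, *Itgb3* at 2.77 in shControl, 1.27 in shMLL1, 3.1 in shKDM4D and 3.85 in shNFIB cells and *Lamb2* at 20.5 in shControl, 8.77 in shMLL1, 19.1 in shKDM4D and 26.5 in shNFIB cells.

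Secreted R-spondins and a BMP ligand, from pathways that steer the lineage choice of MSCs, were among the lower genes. In the Wnt pathway 4 of 27 genes were lower and 1 higher, where 4.56% of all genes were lower and 0.973% higher. Besides *Rspo2*, the R-spondin *Rspo3* was at 11.6 in shControl, 1.96 in shMLL1, 35.9 in shKDM4D and 5.39 in shNFIB cells. Of 20 listed ligands, R-spondins included, only 3 were over the expression limit. The ligand other than *Rspo2* and *Rspo3* was not called, with a log2 ratio of -0.28, so the Wnt ligands as a class could not be judged. The receptor *Fzd4* was at 2.74 in shControl, 1.23 in shMLL1, 2.96 in shKDM4D and 1.16 in shNFIB cells, as low in shNFIB cells, and the secreted inhibitor *Sfrp1* at 3.04 in shControl, 0.958 in shMLL1, 0.925 in shKDM4D and 9.4 in shNFIB cells, as low in shKDM4D cells. The inhibitor *Dkk2* was the higher gene, at 0.882 in shControl, 1.89 in shMLL1, 0.304 in shKDM4D and 1.14 in shNFIB cells. None of 10 transducers and target genes was called, and *Ctnnb1*, which encodes beta-catenin, was at 108 in shControl and 104 in shMLL1 cells. In the TGF-beta and BMP pathway 3 of 33 genes (9.09%) were lower. *Bmp4* was at 63.2 in shControl, 13.8 in shMLL1, 57.3 in shKDM4D and 110.3 in shNFIB cells, a log2 ratio of -2.20 (-2.30 to -2.11). *Ltbp2*, a matrix protein related to the TGF-beta carriers, was at 48.6 in shControl, 14.7 in shMLL1, 54.7 in shKDM4D and 62.2 in shNFIB cells, and *Fstl1*, a secreted follistatin relative, at 353 in shControl, 161 in shMLL1, 318 in shKDM4D and 541 in shNFIB cells. For all 3 the shMLL1 library was the lowest, and 0 of 15 receptors and SMAD genes was called.

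*Pparg*, *Cebpa* and *Ebf1*, which drive adipogenesis, were lower before induction. Of 23 expressed adipogenic transcription factors 3 (13.0%) were lower, beside 4.56% of all genes, and 0 higher. Each of the lower ones was below all other lines. *Pparg*, the master regulator of fat cells, was at 8.2 in shControl, 3.34 in shMLL1, 5.6 in shKDM4D and 6.02 in shNFIB cells, a log2 ratio of -1.29 (-1.48 to -1.11). *Cebpa*, its partner, rested on 144 and 60 reads, at 2.05 in shControl, 0.596 in shMLL1, 1.59 in shKDM4D and 1.22 in shNFIB cells. *Ebf1* was at 3.97 in shControl, 1.56 in shMLL1, 3.85 in shKDM4D and 1.88 in shNFIB cells. At day 5 *Pparg* was at 21.7 in shControl and 7.22 in shMLL1 cells. The further factors *Cebpg* and *Klf9* were within 2-fold, at 13.5 in shControl and 7.88 in shMLL1 cells and at 10.7 in shControl and 6.43 in shMLL1 cells, and *Klf5* was at 1.96 in shControl and 3.31 in shMLL1 cells. Of 19 adipocyte genes 2 were lower. *Plin4*, a lipid droplet coat protein, was at 13.1 in shControl, 4.42 in shMLL1, 11.4 in shKDM4D and 6.0 in shNFIB cells, and *Mgll*, which cleaves monoacylglycerol, at 1.03 in shControl, 0.232 in shMLL1, 2.28 in shKDM4D and 1.38 in shNFIB cells. The fatty acid carrier *Fabp5* and the synthase *Fasn* were on the other side, at 25 in shControl, 44.5 in shMLL1, 10.3 in shKDM4D and 16 in shNFIB cells and at 15.3 in shControl, 23.3 in shMLL1, 11.9 in shKDM4D and 17.5 in shNFIB cells. None of 17 anti-adipogenic factors matched by symbol was called, *Ddit3* being outside this list as well. *Zfp521* was at 8.24 in shControl and 4.31 in shMLL1 cells and *Twist2* at 5.68 in shControl and 10.5 in shMLL1 cells.

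Contractile, lysosomal, stress and hypoxia genes also held lower members, in counts to be read against 4.56% lower among all genes. Of 14 smooth muscle genes 4 were lower. *Tagln* was at 7.19 in shControl, 2.17 in shMLL1, 5.56 in shKDM4D and 5.07 in shNFIB cells, *Myl9* at 11.7 in shControl, 4.87 in shMLL1, 6.65 in shKDM4D and 33 in shNFIB cells and *Lmod1* at 2.39 in shControl, 0.564 in shMLL1, 3.59 in shKDM4D and 1.51 in shNFIB cells, while *Actg2* was lower still in shKDM4D cells, at 12.8 in shControl, 5.28 in shMLL1, 3.45 in shKDM4D and 7.98 in shNFIB cells. *Acta2*, the actin of myofibroblasts and the most abundant member, was at 1280.1 in shControl and 845 in shMLL1 cells, within 2-fold. Of 28 lysosomal proteases and proton pump genes 4 were lower and 26 were below their control level, with a median of -0.51. *Hexa* was at 95.3 in shControl, 44.9 in shMLL1, 77.2 in shKDM4D and 74.3 in shNFIB cells and the protease *Ctsd* at 229 in shControl and 131 in shMLL1 cells. Of 20 cell cycle inhibitors and p53 targets 4 were lower, all of them among the 16 of p53 and its targets. *Fas*, a death receptor, was at 31.3 in shControl, 9.77 in shMLL1, 54.6 in shKDM4D and 45.5 in shNFIB cells. *Gadd45a* was at 24.9 in shControl, 6.25 in shMLL1, 23.4 in shKDM4D and 4.77 in shNFIB cells. *Trp53inp1* was at 10.5 in shControl, 4.27 in shMLL1, 11.2 in shKDM4D and 13.6 in shNFIB cells. *Perp* was at 1.25 in shControl, 0.0134 in shMLL1, 0 in shKDM4D and 0.0549 in shNFIB cells, so every knockdown line was far below shControl cells. It was carried by 65 reads in shControl cells and 1 in shMLL1 cells. The inhibitor *Cdkn1a* was at 30.6 in shControl and 18.8 in shMLL1 cells. Of 13 hypoxia-responsive genes 4 were lower, *Ndrg1* at 27 in shControl, 5.69 in shMLL1, 14.8 in shKDM4D and 4.99 in shNFIB cells, *Epas1* at 1.43 in shControl, 0.271 in shMLL1, 2.32 in shKDM4D and 0.404 in shNFIB cells, *Adm* at 8.63 in shControl, 2.96 in shMLL1, 5.41 in shKDM4D and 2.61 in shNFIB cells and *Ero1l* at 26.1 in shControl, 11 in shMLL1, 30.1 in shKDM4D and 13.1 in shNFIB cells. For these 4, shNFIB cells were also below the control, and 0 of 15 glycolytic enzymes was called. Of 10 imprinted genes 3 were lower, *Impact* at 23.9 in shControl, 7.12 in shMLL1, 14.2 in shKDM4D and 15.3 in shNFIB cells, *Ndn* at 3.45 in shControl, 1.25 in shMLL1, 2.48 in shKDM4D and 6.29 in shNFIB cells and *Grb10* at 40.3 in shControl, 17.7 in shMLL1, 32.2 in shKDM4D and 23.7 in shNFIB cells. The insulin and IGF list had *Igfbp4* at 9.51 in shControl, 3.69 in shMLL1, 5.18 in shKDM4D and 9.75 in shNFIB cells beside *Grb10*.

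Proliferation genes leaned to the other side without passing 2-fold. All 32 mitosis and G2/M genes were above their control level, with a median log2 ratio of 0.60, and all 32 DNA replication genes were too, with a median of 0.32. *Cdc20*, an activator of mitotic exit, was at 27.9 in shControl, 53.9 in shMLL1, 44.6 in shKDM4D and 33.4 in shNFIB cells, and the kinase *Plk1* at 24.9 in shControl, 47.4 in shMLL1, 49.9 in shKDM4D and 43.7 in shNFIB cells. *Mki67*, a marker of cycling cells, was at 76.7 in shControl, 113 in shMLL1, 112 in shKDM4D and 119 in shNFIB cells. In the mitosis genes it was the shControl library that stood apart, since the summed RPKM was 820 in shControl, 1196 in shMLL1, 1259 in shKDM4D and 1288 in shNFIB cells. The shMLL1 library was the highest of the 4 in 10 of the 32. In the replication genes it was the highest in 23 of 32. The summed level there was 760.2 in shControl, 1002 in shMLL1, 839.9 in shKDM4D and 733 in shNFIB cells. *Cdc6*, which licenses replication origins, was at 6.86 in shControl, 12.4 in shMLL1, 7.2 in shKDM4D and 7.09 in shNFIB cells, and the helicase subunit *Mcm5* at 31.9 in shControl, 48.6 in shMLL1, 33.6 in shKDM4D and 23.8 in shNFIB cells.

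Signalling lists held calls in both directions, to be read against 4.56% lower and 0.973% higher among all genes. The lower shares of the AP-1 (6.67%), YAP and TEAD (5.56%) and circadian (6.25%) lists were near that of all genes. Among 15 chemokines and cytokines, 2 were lower and 2 higher. The lower genes were *Cxcl12*, a chemokine that retains stem cells in their niche, at 76.5 in shControl, 28.4 in shMLL1, 68.5 in shKDM4D and 51.8 in shNFIB cells, and *Cxcl5*, at 68.1 in shControl, 31.6 in shMLL1, 88.5 in shKDM4D and 60.8 in shNFIB cells. The higher genes were the monocyte attractants *Ccl2*, at 75.7 in shControl, 153 in shMLL1, 119 in shKDM4D and 186 in shNFIB cells, and *Ccl7*, at 39.6 in shControl, 122 in shMLL1, 68.9 in shKDM4D and 93.6 in shNFIB cells, and shControl cells were the lowest line for both. In the AP-1 and immediate early list of 15 genes *Atf3*, given above, was lower and 1 was higher, *Fosl1* at 21.2 in shControl, 44.7 in shMLL1, 38 in shKDM4D and 39.5 in shNFIB cells, and *Jun* was at 24.8 in shControl and 32.5 in shMLL1 cells. Of 18 YAP and TEAD genes 1 was higher, *Ankrd1* at 4.08 in shControl, 9.46 in shMLL1, 2.84 in shKDM4D and 7.77 in shNFIB cells, and 1 lower, the receptor *Axl* at 82.5 in shControl, 40.4 in shMLL1, 77.5 in shKDM4D and 90.7 in shNFIB cells. *Sgk1*, a kinase gene induced by glucocorticoids, was the higher one of 11 glucocorticoid genes, at 5.79 in shControl, 13 in shMLL1, 7.68 in shKDM4D and 7.76 in shNFIB cells. Of 12 genes in the bone and cartilage list, 3 were lower and 2 higher, with a median log2 ratio of 0.20. *Col2a1* was among the lower and *Spp1* among the higher ones, both given above. The lower gene *Tnfrsf11b* encodes the decoy receptor osteoprotegerin. It was at 50.1 in shControl, 7.6 in shMLL1, 26.1 in shKDM4D and 48.9 in shNFIB cells. The homeobox gene *Dlx5* was lower at 7.05 in shControl, 1.8 in shMLL1, 3.82 in shKDM4D and 2.94 in shNFIB cells. *Phex*, a phosphate regulator, was higher at 0.489 in shControl, 1.43 in shMLL1, 0.472 in shKDM4D and 0.358 in shNFIB cells. Of 14 expressed genes in the mesenchymal marker list, 2 were lower, *Thy1* and *Ly6a*, and 4 were above their control level. *Thy1* was nearly absent from the other lines, at 25 in shControl, 11.8 in shMLL1, 0.0171 in shKDM4D and 0.0179 in shNFIB cells. *Ly6a*, which encodes Sca-1 and belongs to a gene family, was at 172 in shControl, 81.5 in shMLL1, 191 in shKDM4D and 90.6 in shNFIB cells. *Dhrs3* was the lower gene of 6 in retinoid metabolism, at 2.4 in shControl, 0.501 in shMLL1, 3.69 in shKDM4D and 1.37 in shNFIB cells, and *Arntl* the lower gene of 16 in the circadian clock, at 3.16 in shControl, 1.33 in shMLL1, 2.88 in shKDM4D and 1.87 in shNFIB cells. In the NRF2 list 3 of 20 genes were lower, *Slc7a11* together with *Gsta4*, at 27.5 in shControl, 10.5 in shMLL1, 39 in shKDM4D and 27.5 in shNFIB cells, and *Gstm2*, at 38.6 in shControl, 19 in shMLL1, 29.3 in shKDM4D and 33.8 in shNFIB cells. *Gstm2* belongs to a family of close copies. *Pcdhb14* was the lower gene of 5 expressed protocadherins, at 1.52 in shControl, 0.542 in shMLL1, 0.182 in shKDM4D and 0.622 in shNFIB cells.

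Other lists held no gene past 2-fold. These were the 79 ribosomal protein genes (median 0.07), the 44 nuclear-encoded (0.08) and 13 mitochondrially encoded (0.26) respiratory chain genes and the 24 cholesterol genes (-0.09). The sterol synthesis gene *Hmgcs1* was at 49.6 in shControl, 32.4 in shMLL1, 29.8 in shKDM4D and 30.5 in shNFIB cells, so that shMLL1 cells stood with the other knockdown lines. For the cholesterol list as a whole, the median log2 ratio to shControl was -0.65 in shKDM4D and -0.62 in shNFIB cells. The sterol element TCACNCCAC, searched on both strands, was present in 1 of 17 cholesterol promoters, in 1.26% of expressed genes and in 1.44% of all promoters. Among markers of other cell types, 5 of 7 expressed ones were lower, each with an RPKM of under 4 in shControl cells. They were *Tek* at 1.58 in shControl and 0.211 in shMLL1 cells, *Cd68* at 1.64 in shControl and 0.521 in shMLL1 cells, *Cdh1* at 1.63 in shControl and 0.527 in shMLL1 cells, *Tubb3* at 3.42 in shControl and 1.18 in shMLL1 cells and *Acta1* at 1.39 in shControl and 0.614 in shMLL1 cells. Their part in the other results was not tested.

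The other knockdown lines show which differences set shMLL1 cells apart from every line and which turn on the shControl library. Of the 473 lower genes, 372 (78.6%) were below all 3 other lines at day 0, beside 35.7% of all genes, and 136 (28.8%) were below each of them by more than 2-fold, beside 1.31%. Of the 101 higher genes, 84 (83.2%) were above all 3, beside 21.9%, and 33 (32.7%) by more than 2-fold, beside 0.318%. The shControl level is part of both the rule and these counts, so they are a description. Among the genes below every line by more than 2-fold were *Il1rn*, *Rspo2*, *Clec3b*, *Scara5*, *C3*, *Bmp4*, *Lox*, *Fas*, *Adamts5*, *Ltbp2*, *Col2a1* and *Kmt2a*. Others, named after their values were seen, were the homeobox genes *Six2*, at 13.7 in shControl, 4.18 in shMLL1, 15.9 in shKDM4D and 15.7 in shNFIB cells, and *Emx2*, at 5.08 in shControl, 1.78 in shMLL1, 5.4 in shKDM4D and 6.5 in shNFIB cells. *Fhl1*, a LIM domain gene, was at 10.4 in shControl, 2.6 in shMLL1, 10.8 in shKDM4D and 25.8 in shNFIB cells, and *Nbl1*, a secreted BMP antagonist, at 19.7 in shControl, 6.22 in shMLL1, 22.6 in shKDM4D and 19 in shNFIB cells. Above every line by more than 2-fold were *Apcdd1*, *Spp1*, *Sprr1a*, *Eno3*, *Gpr149*, *Ctnnal1*, *Etv4* and *Map1b*.

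At the 2-fold limit, the differences of day 0 were carried to day 5 in a minority of genes, and some stood in the opposite direction there. Of the 473 lower genes, 77 (16.3%) were also lower at day 5, beside 2.03% of all genes, and 60 (12.7%) were higher, beside 3.36%. Their median log2 ratio was -0.21 at day 5, beside 0.07 for all genes. Of the 473, 298 lay below 0 at day 5, beside 4303 of all 10381 genes. Of the 101 higher genes, 34 (33.7%) were higher and 3 (2.97%) lower at day 5, with a median of 0.49. Lower at both days were *Kmt2a*, *Pparg*, *Cebpa*, *Cxcl12*, *Plin4*, *Mgll* and *Scara5*. *Cxcl12* was at 418 in shControl and 111 in shMLL1 cells on day 5, and *Il1rn* at 602 and 237. *Spp1* and *Has2* were higher at both days. The interferon-stimulated genes took the opposite side, since all 19 lower at day 0 were higher at day 5, as were 37 of all 49. *Ifit3* was at 48.5 in shControl and 1133 in shMLL1 cells on day 5, and at 45.7 in shKDM4D and 489 in shNFIB cells. Against the same shControl library, 31 of the 49 were higher in shNFIB cells at day 5 as well, 18 of the 19 among them, and 0 in shKDM4D cells. In the ATF4-CHOP list 6 of the 16 lower genes were higher at day 5. Among them *Trib3* was at 3.21 in shControl, 17.3 in shMLL1, 6.71 in shKDM4D and 9.33 in shNFIB cells. In the same order, *Chac1* was at 2.43, 9.47, 5.74 and 12.7 and *Atf3* at 1.22, 3.2, 0.451 and 1.76. Acute-phase genes split, with *Hp* lower, *C3* at 956 in shControl and 764 in shMLL1 cells, and *C1ra* at 73.6 and 84.3.

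**Figure D4:**
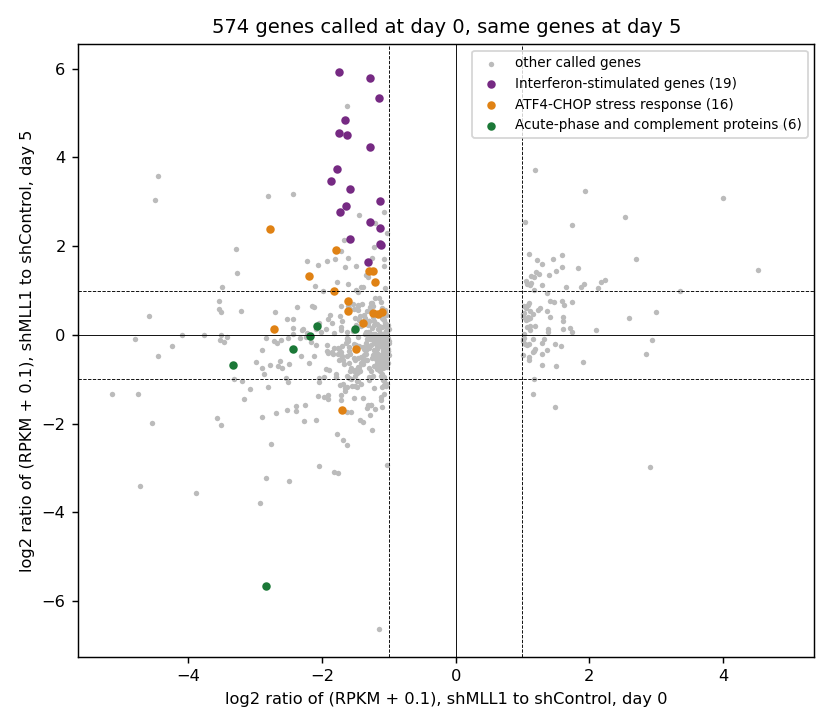
Log2 ratio of (RPKM + 0.1) in shMLL1 to shControl cells at day 0 (horizontal axis) and day 5 (vertical axis) for the 574 genes past 2-fold at day 0, 1 library a line and day, with dashed lines at 2-fold. The 19 interferon-stimulated genes lie above the upper dashed line at day 5, the 16 ATF4-CHOP genes spread over both sides of 0, and of the 6 acute-phase genes 1 lies below the lower line.

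The lower genes were also often genes that went up after induction in the other knockdown lines, in which the paper reports impaired differentiation. From day 0 to day 5, 206 of the 473 (43.6%) were up by more than 2-fold in shKDM4D cells, beside 7.41% of all genes, and 46 (9.73%) were down, beside 8.15%. In shNFIB cells 235 (49.7%) were up, beside 7.21%, and 14 (2.96%) down, beside 4.66%. The median log2 change of the lower genes was 0.82 in shKDM4D and 0.99 in shNFIB cells, where that of all genes was -0.02 and 0.04. The higher genes ran the other way. In each of the 2 lines 41 of the 101 (40.6%) were down, and 17 (16.8%) and 10 (9.90%) were up. Their median log2 change was -0.76 and -0.64. Neither line shares a library with the shMLL1 to shControl ratio. *Scara5* went from 46.7 to 234 in shKDM4D and from 27.5 to 107 in shNFIB cells, *Cxcl12* from 68.5 to 523 and from 51.8 to 254, and *C3* from 66 to 753 and from 45 to 507. The higher gene *Hmga2* went from 25 to 2.96 and from 64.2 to 6.76.

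The ratios were not even over the genome. On chromosome 14 the median log2 ratio of 365 genes was -0.31 at day 0 and -0.24 at day 5, where the other chromosomes had medians from -0.19 to 0.08 and from -0.11 to 0.19. Of these genes 81.1% lay below 0, 29 (7.95%) were lower and 0 higher by more than 2-fold, and 255 (69.9%) were below all other day 0 lines. The shift ran along the whole chromosome, with medians of -0.28, -0.31, -0.37 and -0.24 in 4 consecutive parts of equal gene number. Chromosome 16 had a median of -0.19 at day 0 and -0.11 at day 5, with 22 of 325 genes lower, 1 higher and 66.5% below all other lines. *Bmp4*, *Scara5*, *Psme2* and *Ero1l* lie on chromosome 14, and *Fstl1*, *Adamts1* and *Adamts5* on chromosome 16. Without these 2 chromosomes the lowest median was -0.10, on chromosome 13. The other lines had shifts of their own against shControl cells, such as -0.34 on chromosome 10 and 0.25 on chromosome 1 in shKDM4D and -0.31 on chromosome 15 in shNFIB cells at day 0. The copy number of these chromosomes was not measured, and the part of these shifts in the results above was not tested.

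**Figure D5:**
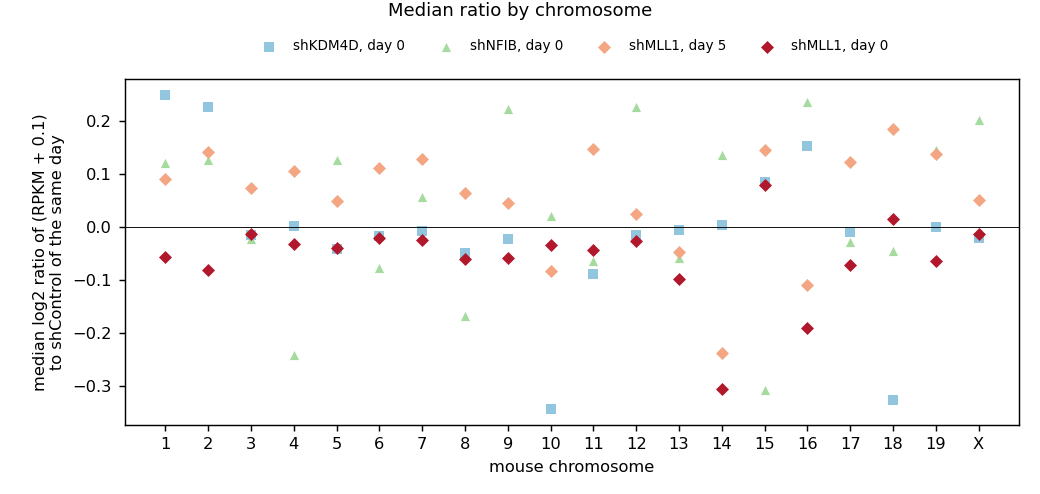
Median log2 ratio of (RPKM + 0.1) to the shControl library of the same day, for the expressed genes of each mouse chromosome (horizontal axis), in shMLL1 cells at day 0 and day 5 and in shKDM4D and shNFIB cells at day 0. Chromosome 14 is lowest in shMLL1 cells on both days (-0.31 and -0.24).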

How the data were processed

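Total RNA of 8 samples (4 lines at day 0 and day 5, 1 library each) was sequenced from SMARTer Stranded libraries on a HiSeq instrument. The authors mapped the reads to GRCm38/mm10 in the CLC Genomics Workbench, version 11.0.1 (costs of 2 for a mismatch and 3 for an insertion or a deletion, and fractions of 0.8 for length and similarity), and deposited RPKM values per gene, normalized to exon length and mapped reads. The annotation release is not given in the sources used here.

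The per-sample tables were joined on the gene symbol. Genes with an RPKM over 1 in the shControl or the shMLL1 library at day 0 were kept, and genes past 2-fold on the log2(RPKM + 0.1) scale were called, which understates the change of low genes. With 1 library per group no test was possible. Read numbers were recovered from the RPKM steps and GENCODE M21 exon lengths, which matched 10331 of 10381 genes, and exact (Clopper-Pearson) 95% intervals of the ratio were made from them. They cover counting error only. Depth ranged from 15842200 to 38202600 reads.

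The genes, the 42 lists and the comparisons were chosen with earlier results of these data known. Named were *Kmt2a*, the 15 largest changes each way among annotated protein coding genes with an RPKM of at least 5, up to 6 genes with the largest ratio and up to 3 with the highest level of each list, and genes needed to show that others did not move. Further genes are named for a promoter element, a role, an opposite call or a missing annotation, after their values were seen. The listed gene Prl2c4 was not matched, and Hoxd4, Ddit3, Aldoa and Atp5o have suffixed symbols (_1 and _2) and were left out of the list counts. Some genes that the rule names are not reported here. Promoters and their motifs came from RefSeq. Alternatives were other filters, pseudocounts, scalings, thresholds and reference lines. Scripts were tested on simulated data and used Python 3.11.15, numpy 2.4.6, pandas 2.3.3, scipy 1.17.1 and matplotlib 3.10.9.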

Additional observations from a re-analysis of the deposited data

Results flagged for a closer look

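Opposite calls at day 0 and day 5 drew a closer look. The difference between the days was not tested, since each line had 1 library per day. Of the genes lower by more than 2-fold in shMLL1 cells at day 0, 60 were higher by more than 2-fold at day 5, and 3 genes went from higher to lower. By list, 19 of these 60 were interferon-stimulated genes and 6 were ATF4-CHOP genes. The MLL/SET1, the AP-1, the mesenchymal marker and the retinoid lists each held 1, which were *Pagr1a*, *Atf3*, *Ly6a* and *Dhrs3*.

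The values below are the log2 ratios of (RPKM + 0.1) in shMLL1 to shControl cells at day 5, of genes that were lower at day 0. Among the interferon-stimulated genes the GTPases *Tgtp1*, *Irgm2*, *Igtp* and *Gbp2* had ratios of 5.93, 3.47, 3.29 and 1.64. The effectors *Oas1a*, *Ifit3*, *Ifit1* and *Ifit3b* were at 4.85, 4.54, 4.50 and 4.23, and *Xaf1* and *Trim30a* at 3.73 and 2.78. The regulator *Irf7* was at 5.34. Among the ATF4-CHOP genes, *Trib3*, *Chac1*, *Slc7a5*, *Atf3* and *Atf5* were at 2.39, 1.92, 1.44, 1.32 and 1.19. *Ddit3*, listed as *Ddit3_1* and not counted in that list, was at 2.13. *Ly6a* was at 2.77, *Pagr1a* at 2.52, *Dhrs3* at 1.58 and *Cox6a2* at 3.58. The 3 genes higher at day 0 and lower at day 5, named after their values were seen, were *Esm1* at -1.63, the chondroitin sulfotransferase gene *Chst15* at -1.33 and *Gm42674* at -2.98. *Cox6a2* and *Gm42674* rested on few reads.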

How the results depend on the processing

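No paired analysis was possible because each line had 1 library per day, and leaving out a replicate was not possible for the same reason. Lower genes outnumbered higher ones under every alternative tried, with the lower share of called genes between 66.4% and 85.4%. The counts moved with the filter, the constant and the threshold. Without a filter 950 genes were lower and 342 higher, with an RPKM over 5 there were 220 and 43, with 1 added to each RPKM 252 and 45, and at 1.5-fold 1280 and 395. Higher genes numbered 57 when the counting interval had to lie beyond 2-fold, and 184 and 237 against shKDM4D and shNFIB cells, references chosen after seeing the data. The genes lower at both days numbered 185 without a filter, 32 over an RPKM of 5, 138 with a filter over all 8 libraries and 40 with 1 added. Those going from lower to higher were 129, 25 and 26 without a filter, over 5 and with 1 added. The genes higher at both days numbered 81, 10, 52 and 9 under these 4 settings. Those going from higher to lower were 30, 1, 8 and 1, with 7 for no added constant and 6 after quantile normalization. Below the other day 0 lines were 625, 181 and 195 lower genes without a filter, over 5 and with 1 added, and above them 263, 36 and 36 higher genes, with 127 after quantile normalization. The median log2 ratio of all genes ran from -0.11 against shNFIB cells to 0.04 after quantile normalization. The *Kmt2a* ratio of (RPKM + 0.1), -1.33, was -1.04 with 1 added, -1.10 after quantile normalization, -1.24 after median-of-ratios scaling and -1.58 relative to *Gapdh*. Of 2212 values of named genes under other scalings and constants, 1484 stayed within their counting interval (within 0.1 for genes without one) and 728 did not, and 0 changed direction among genes past 2-fold, which such settings can hardly reverse. Of 1008 list counts 860 stayed within 1.5 times, and 148 did not. Genes with a few reads in either library have wide intervals, and the depth cannot show 2-fold differences in them.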

Other observations

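The following genes were picked after their values were seen. *Areg*, which encodes the EGF receptor ligand amphiregulin, had an RPKM of 0.68 in shControl, 3.3 in shMLL1, 0.421 in shKDM4D and 1.06 in shNFIB cells, a log2 ratio of 2.28 (1.63 to 2.99). *Hbegf*, a ligand of the same receptor, was at 3.42 in shControl, 7.57 in shMLL1, 3.49 in shKDM4D and 8.06 in shNFIB cells, while a further ligand, *Ereg*, was at 3.12 in shControl, 3.75 in shMLL1, 5.39 in shKDM4D and 6.33 in shNFIB cells. *Dusp6*, a phosphatase of ERK kinases, was at 2.6 in shControl, 5.33 in shMLL1, 3.51 in shKDM4D and 3.95 in shNFIB cells, and the ETS factor *Ets1* at 3.28 in shControl, 7.07 in shMLL1, 4.7 in shKDM4D and 4.8 in shNFIB cells, beside *Etv5* at 4.86 in shControl, 4.28 in shMLL1, 6.2 in shKDM4D and 5.58 in shNFIB cells. *Hmga1*, the relative of *Hmga2*, was at 84.5 in shControl, 175 in shMLL1, 64.7 in shKDM4D and 77 in shNFIB cells. Epidermal genes went in both directions. *Sprr1b* was at 0.362 in shControl, 2.9 in shMLL1, 0.37 in shKDM4D and 0.71 in shNFIB cells and *Sprr2k*, one of a family of close copies, at 60.6 in shControl, 131 in shMLL1, 39.1 in shKDM4D and 43.5 in shNFIB cells. *Cdsn*, given above, was lower in shMLL1 cells. So was *Sprr2b*, at 1.24 in shControl, 0.134 in shMLL1, 0.522 in shKDM4D and 0.342 in shNFIB cells, on 26 and 4 reads in the first 2. *Lgr6*, a receptor for R-spondins, was at 0.186 in shControl, 1.62 in shMLL1, 0.254 in shKDM4D and 0.391 in shNFIB cells. No list was fixed for these genes, and they are given as values.

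The check for whole reads that singled out *Kmt2a* in the shMLL1 libraries singled out 1 other gene in the remaining 6 libraries. This was *Cebpa* in shKDM4D cells at day 5, at 308.7 reads, out of 9971 genes. The cause was not tested.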
